A study of Caenorhabditis elegans with 15 samples.

Results

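The genes described here are those named nhr and a number, the nuclear hormone receptors of Caenorhabditis elegans, without nhr-49 and nhr-80. The deposited tables list 275 such names among 42048 genes. Of these, 175 had a mean of at least 1 RPKM (read counts set against gene length and library depth) over the 15 libraries and are reported, and 100 fell below that limit, 5 of them at 0 in every library. The members just inside the limit were nhr-282 at 1.08, nhr-227 at 1.05 and nhr-258 at 1.05 RPKM, and those just outside were nhr-150 at 0.990, nhr-206 at 0.987 and nhr-244 at 0.921 RPKM. Among the 100 genes below the limit, 20 reached 1 RPKM in some library, and the highest single value was 2.02 RPKM, in nhr-6.

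Nuclear hormone receptors are transcription factors with a zinc-finger DNA-binding domain and a domain that can bind small fat-soluble ligands. Worms carry far more of them than insects or mammals, most descended from a gene related to HNF4, a regulator of fat and sugar metabolism in the mammalian liver. A few are counterparts of receptors shared across animals, among them those that time the moults. In worms without a germline, receptors such as DAF-12 are known to act in long life and in fat metabolism.

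RNA was sequenced from whole bodies of worms on adult day 1 in 5 groups of 3 libraries. All groups were labelled as kept at 20 °C and fed bacteria of strain HT115 (DE3) that make double-stranded RNA from the L4440 vector. The first group was TU3401 on the control RNAi luc; its genotype label is blank, and TU3401 is known as a sid-1 mutant in which sid-1, the channel for double-stranded RNA, is restored in neurons, so that feeding RNAi acts mainly there. The other 4 groups were SHU47, labelled glp-1: a control on luc, and worms on RNAi to hlh-30, to atg-2 and to atg-18, each described by the submitters as neuronal. The glp-1 gene encodes the Notch receptor that keeps germline stem cells dividing, and its mutants lack most of the germline; the allele is not named in the labels. Strain and germline loss cannot be told apart in the comparison of SHU47 with TU3401. Whether replicate libraries stem from separate cultures is not stated in the labels; p-values here therefore cover library-to-library spread, possibly of technical origin. Depth, recovered from the steps in the RPKM values, was 17496624 to 25599148 reads per library.

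The labels were checked on the RNAi targets and on tissue markers. On average, no target was lower under the RNAi named after it: hlh-30 stood at 54.6, 44.5 and 50.9 RPKM in glp-1 luc and at 126, 293 and 328 RPKM under hlh-30 RNAi, atg-2 at 34.7, 26.6 and 28.9 against 43.1, 39.4 and 38.01 RPKM, and atg-18 at 78.5, 68.8 and 70.1 against 49.1, 81.3 and 116 RPKM. The hlh-30 level was higher in 3 of 3 libraries under its own RNAi (2.18 ± 0.34, SE, on the log2 scale; limma adjusted p = 0.107). The cause was not tested, and the groups are called by their labels below. The summed level of 27 germline and oocyte markers was 12507 to 12849 RPKM in TU3401 and 27.8 to 320 RPKM in the 12 glp-1 libraries. It was above 100 RPKM in 3 of those, each numbered 1, from luc (137), from hlh-30 RNAi (215) and from atg-2 RNAi (320). In samples of whole worms, fewer cells of a type and less RNA per cell cannot be told apart.

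The receptor genes were low on the RPKM scale. Their median level over the 15 libraries was 5.54 RPKM, against 13.9 RPKM over all 13383 genes above the same limit. Of the 175, 95 were at 5 RPKM or more, 43 at 10 or more, 14 at 20 or more and 3 at 50 or more. The 6 highest were nhr-97 at 78.6, nhr-76 at 60.4, nhr-68 at 50.9, nhr-14 at 32.6, nhr-1 at 32.5 and nhr-69 at 32.3 RPKM. At the other end, nhr-282 near the limit rested on 2 to 40 reads per library and nhr-97 on 1114 to 3188.

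Germline-less and germline-bearing worms on luc RNAi differed in most receptors. The 175 genes together summed to 992 ± 59.6 RPKM in TU3401 (SD, n = 3; 930 to 1049) and to 1603 ± 98.9 RPKM in glp-1 luc (1499 to 1696), and the other glp-1 groups had sums from 1468 to 1693 RPKM, in which library 2 of each (1468, 1481 and 1497) was below the luc range. Library 2 had the lowest sum in each of the 5 groups, TU3401 (930) and glp-1 luc (1499) included. Tested with limma on log2(RPKM + 1), a scale that understates the change of low genes, 131 members rose, 19 fell and 19 did not pass among 169 tested (Benjamini-Hochberg adjusted p under 0.05 over all genes). The other 6 members, nhr-73, nhr-59, nhr-225, nhr-282, nhr-227 and nhr-258, were under the filter of 1 RPKM over these 6 libraries. The limit for members was set over 15 libraries, 12 of them glp-1, so it favoured genes with higher levels in glp-1 worms. For example, nhr-257, at 0.338 RPKM in TU3401 and 2.84 RPKM in glp-1 luc, was in, and nhr-127, at 1.14 and 0.06 RPKM, was not. The all-gene shares rest on the filter over these 6 libraries alone and are not like for like with the member counts. Nearly the whole transcriptome moved in this comparison: 89.7% of 13569 tested genes were called, 41.4% higher and 48.3% lower. The receptors' median difference was 0.91 on the log2 scale, against -0.19 for all genes tested, and 148 of the 169 lay above that all-gene median. Every glp-1 luc library was above every TU3401 library for 134 members (41.6% of all genes) and below for 21 (48.6% of all genes; 90.2% in either direction).

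**Figure D1:**
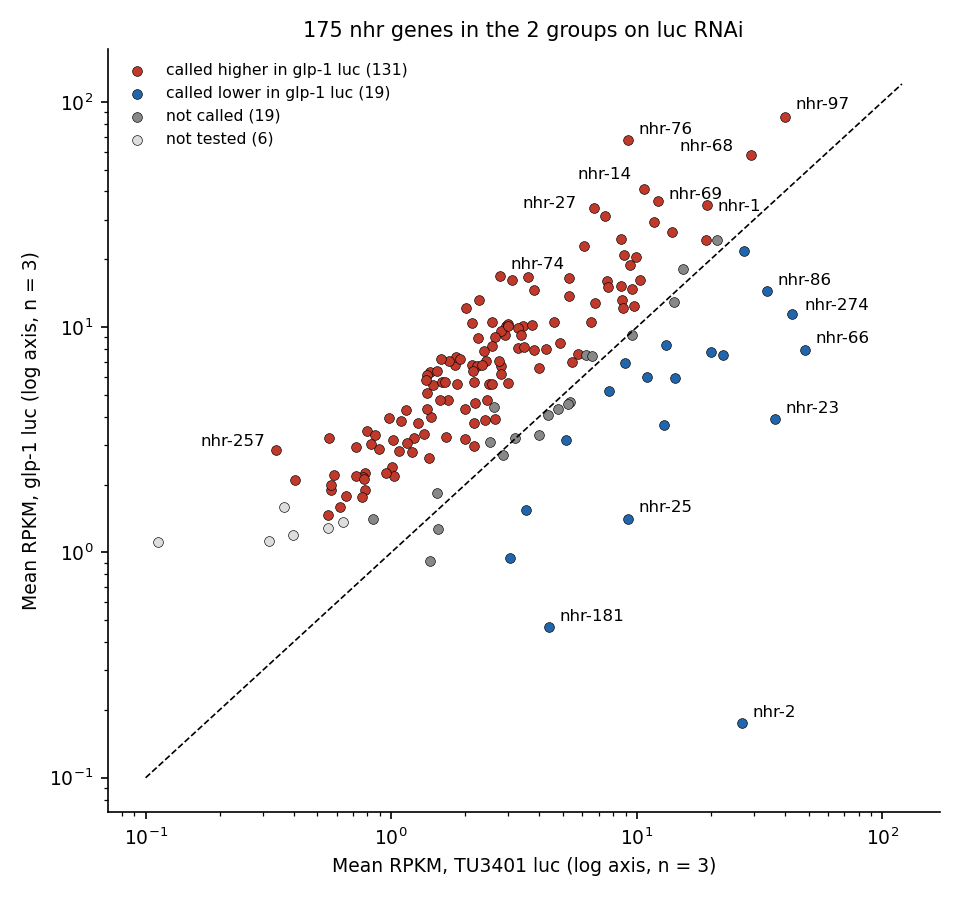
Mean RPKM of each of the 175 receptor genes in TU3401 luc (horizontal, log axis) and glp-1 luc (vertical, log axis), each the mean of 3 libraries and coloured by the limma call on the RPKM scale; the dashed line marks equal levels. The 131 genes called higher lie above the line and the 19 called lower, nhr-2, nhr-23, nhr-66 and nhr-25 among them, lie below it; genes that were not called lie on either side.

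The direction of most of these rises depended on the scale. RPKM sets each gene against all reads of its library. When libraries were scaled on the summed RPKM of 16 pan-neuronal and 16 muscle markers, 9 members were called higher, 72 lower and 92 were not called among 173 tested, where 75.0% of all genes were called, 8.74% higher and 66.3% lower. The members' median then was -0.28 and that of all genes -1.57, and 149 members lay above the all-gene median. Of the 131 that were higher on the RPKM scale, 9 were higher on both, 87 were not called after scaling and 35 turned lower; all 19 that were lower on the RPKM scale were lower on both. The scaling rests on its markers, which did not move alike: muscle marker sums went from 4139 ± 365 to 14609 ± 1425 RPKM and neuronal marker sums from 758 ± 31.3 to 999 ± 86.3 RPKM (n = 3 each). Muscle markers thus made up most of the sum, and calls after scaling are relative mainly to muscle. On that scale 9 of the 16 neuronal markers were called lower and 0 higher (median -0.51). Of the 16 muscle markers, 7 were called higher and 4 lower (median 0.18). The summed level of 10 intestine markers went from 1669.5 ± 157 to 5225 ± 67.9 RPKM. Of these 10, 9 were called higher and 1 lower on the RPKM scale, and 1 higher and 5 lower after scaling. Hypodermis markers, which mark the tissue that makes the cuticle, had sums of 1566 ± 223 and 5167 ± 561 RPKM. Of 6 tested, 4 were called higher and 2 lower on the RPKM scale. Of 8 tested after scaling, 0 were higher and 5 lower. The 7 sperm markers were low, with sums of 1.15 to 2.00 RPKM in TU3401 and 0.439 to 1.35 RPKM in glp-1 libraries. The part of tissue make-up in the receptors' rises was not tested, and the receptors with a listed role are given on both scales below.

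**Figure D2:**
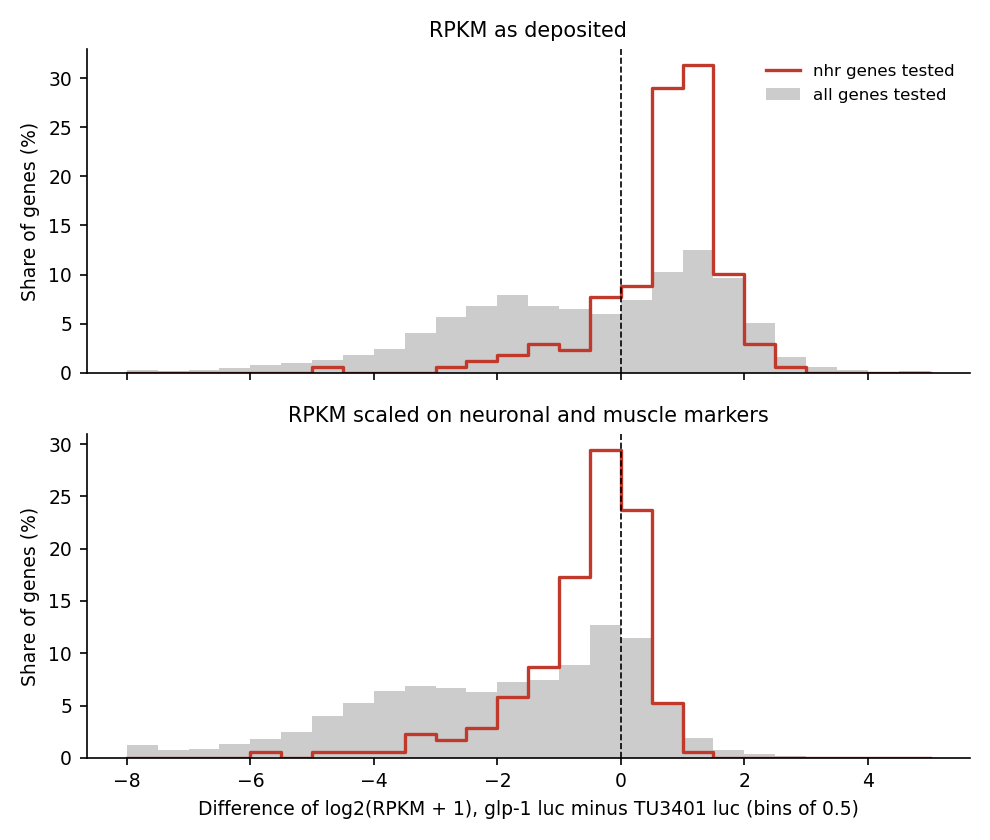
Share of genes (vertical, in percent) by difference of log2(RPKM + 1), glp-1 luc minus TU3401 luc (horizontal, bins of 0.5), for the receptors tested (red line) and for all genes tested (grey bars), as deposited (top) and scaled on neuronal and muscle markers (bottom); values beyond the ends are in the end bins. The receptors' median moves from 0.91 to -0.28 between the panels and that of all genes from -0.19 to -1.57.

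Among the receptors shared across animals, those of the moulting cycle did not move together on the RPKM scale. Of these 6, 2 rose, 3 fell and 1 did not pass, and after scaling 0 were higher, 4 lower and 2 not called. Of all 10 shared receptors listed, 8 were tested. Of these, 3 rose, 3 fell and 2 did not pass, where 89.7% of all genes were called. After scaling, which brought nhr-6 over the filter, 0 were higher and 6 lower of 9 tested. Of all genes, 8.74% were then higher and 66.3% lower. nhr-6, the worm member of the NR4A family, and nhr-111 were below the limit of 1 RPKM over the 15 libraries, at 0.700 and 0.0242 RPKM. nhr-23, the counterpart of ROR and of insect HR3 and required for moulting, was at 38.1, 36.6 and 34.7 RPKM in TU3401 and at 4.46, 3.57 and 3.65 RPKM in glp-1 luc. The groups lay far apart, with a ratio of 9.37 and a difference of -2.94 ± 0.10 (SE; limma adjusted p = 9.69e-08), and of -4.52 after scaling. nhr-25, the counterpart of FTZ-F1, which acts in moulting and in the somatic gonad, went from 9.93, 8.82 and 8.91 RPKM to 1.27, 1.40 and 1.57 RPKM (-2.08 ± 0.11, limma adjusted p = 8.48e-07; -3.54 after scaling). nhr-67, related to tailless, fell as well, from 3.53 ± 0.43 to 1.54 ± 0.11 RPKM (-0.83; -2.17 after scaling). All 3 were lower on both scales.

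The other conserved receptors rose or did not pass on the RPKM scale. nhr-85, the counterpart of E75 and Rev-erb, was at 3.36, 1.21 and 2.55 RPKM in TU3401 and 11.95, 4.38 and 7.24 RPKM in glp-1 luc, so its libraries were scattered in both groups without overlap (1.36 ± 0.37, limma adjusted p = 0.0095; 0.05 after scaling, adjusted p = 0.924). nhr-41, the counterpart of insect HR78, had a difference of 0.80 (limma adjusted p = 0.00776) and of -0.65 after scaling. nhr-8, a relative of the vitamin D receptor that acts in cholesterol balance and in resistance to toxins, rose from 12.2, 11.2 and 11.7 RPKM to 31.5, 30.3 and 26.4 RPKM, a ratio of 2.51 (1.26 ± 0.09, limma adjusted p = 4.49e-06). After scaling its difference turned to -0.33 (adjusted p = 0.0683). nhr-48, of the same branch, stood at 14.2 ± 0.67 against 13.0 ± 0.75 RPKM, and nhr-91, related to GCNF, at 4.005 ± 1.19 against 3.33 ± 0.37 RPKM; neither passed on the RPKM scale, and both were lower after scaling (-1.71 and -1.58). Without TU3401 library 2, nhr-91 passed on the RPKM scale (-0.39, limma adjusted p = 0.0279).

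Of the 8 receptors listed for roles in metabolism, 5 rose, 2 fell and 1 did not pass, where 89.7% of all genes were called. After scaling 1 was higher, 5 were lower and 2 were not called. Of all genes, 41.4% were higher and 48.3% lower on the RPKM scale, and 8.74% higher and 66.3% lower after scaling. nhr-76, known to act in the intestine in fat loss driven by serotonin signals, had the largest rise of log2(RPKM + 1) among the members tested. By the authors' log2 fold change it was at 3.055, below the low genes nhr-282 (3.425, under the filter here) and nhr-257 (3.232). nhr-76 stood at 9.37, 8.41 and 9.91 RPKM in TU3401 and at 58.1, 70.0 and 74.0 RPKM in glp-1 luc, a ratio of 7.30 (2.74 ± 0.11, limma adjusted p = 2.26e-07). It was also the largest rise after scaling, at 1.16 (adjusted p = 6.64e-05). nhr-69, an HNF4-like receptor, rose from 12.2 ± 0.85 to 36.3 ± 2.82 RPKM (1.497; -0.10 after scaling, adjusted p = 0.513), and nhr-62, required for the long life of worms under dietary restriction, from 2.81 ± 0.51 to 6.69 ± 0.225 RPKM (1.02; -0.35 after scaling). nhr-66, known as a partner of NHR-49 in sphingolipid and lipid gene control, fell from 51.0, 46.4 and 47.4 RPKM to 8.12, 6.98 and 8.71 RPKM (-2.47 ± 0.09, limma adjusted p = 1.76e-07; -4.08 after scaling). nhr-13, another partner of NHR-49, fell from 14.3 ± 0.54 to 5.94 ± 0.57 RPKM (-1.14; -2.71 after scaling).

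nhr-10 and nhr-68 act together to switch on the propionate shunt, a way to break down propionate without vitamin B12. nhr-68 was at 29.7, 27.9 and 29.5 RPKM in TU3401 and 59.0, 56.0 and 58.5 RPKM in glp-1 luc, with small spread in both (0.97 ± 0.06, limma adjusted p = 2e-06), but at -0.67 after scaling. nhr-10, at 21.2 ± 0.98 and 24.3 ± 3.56 RPKM, did not pass on the RPKM scale (adjusted p = 0.155), and its difference after scaling was -1.44. Of 5 shunt genes, alh-8 rose, from 344 ± 2.84 to 775 ± 44.6 RPKM. acdh-1, the acyl-CoA dehydrogenase at the head of the shunt, and F09F7.4 fell, acdh-1 from 306, 190 and 254 RPKM to 200, 173 and 144 RPKM with overlapping libraries (-0.52 ± 0.19, limma adjusted p = 0.0328); all 5 were lower after scaling. nhr-114, which acts in the supply of methionine and its product SAM, went from 19.1 ± 1.39 to 24.4 ± 1.80 RPKM (0.34, limma adjusted p = 0.00683; -1.28 after scaling). Of 7 genes of the methionine cycle, none rose and 5 fell, led by mtrr-1, which reactivates methionine synthase (50.5 ± 0.17 to 5.13 ± 0.38 RPKM, -3.07), and ahcy-1, the S-adenosylhomocysteine hydrolase (803 ± 25.6 to 278 ± 17.9 RPKM, -1.53). After scaling all 7 were lower. For both lists of targets, the shares over all genes were 41.4% higher and 48.3% lower on the RPKM scale. After scaling these shares were 8.74% and 66.3%.

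All 6 receptors listed for stress, metals or defence were called on the RPKM scale, 5 of them higher, where 89.7% of all genes were called. After scaling 2 of the 6 were called, both lower. Of all genes, 41.4% were higher and 48.3% lower on the RPKM scale, and 8.74% higher and 66.3% lower after scaling. nhr-14, known in iron balance, rose from 14.2, 8.83 and 8.99 RPKM to 50.1, 29.2 and 43.4 RPKM (1.84 ± 0.24, limma adjusted p = 0.000198), and library 1 was the highest in both groups. nhr-33, the zinc sensor HIZR-1, went from 2.04, 2.07 and 2.30 RPKM to 7.17, 6.70 and 6.56 RPKM, a ratio of 3.19 (1.32 ± 0.10, limma adjusted p = 7.57e-06). Neither passed after scaling (0.26 with adjusted p = 0.463, and 0.00 with adjusted p = 0.983). Of its known targets, mtl-1, a metallothionein, rose from 94.0 ± 17.7 to 2773 ± 314 RPKM (4.88; 3.22 after scaling), and the zinc transporters cdf-2 and ttm-1 had differences of 1.56 and 0.86, with 0.11 and -0.75 after scaling. nhr-45, which acts in the response to mitochondrial damage, rose from 7.56 ± 1.05 to 16.03 ± 1.74 RPKM (0.99; -0.55 after scaling), and nhr-57, a gene switched on by HIF-1 in low oxygen, from 3.38 ± 0.60 to 9.22 ± 0.90 RPKM (1.23; -0.19 after scaling). nhr-86, a sensor of a bacterial metabolite that switches on pathogen defence, was the exception. It fell from 36.9, 29.9 and 35.0 RPKM to 14.0, 14.6 and 14.7 RPKM (-1.17 ± 0.09, limma adjusted p = 8.84e-06; -2.80 after scaling).

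**Figure D3:**
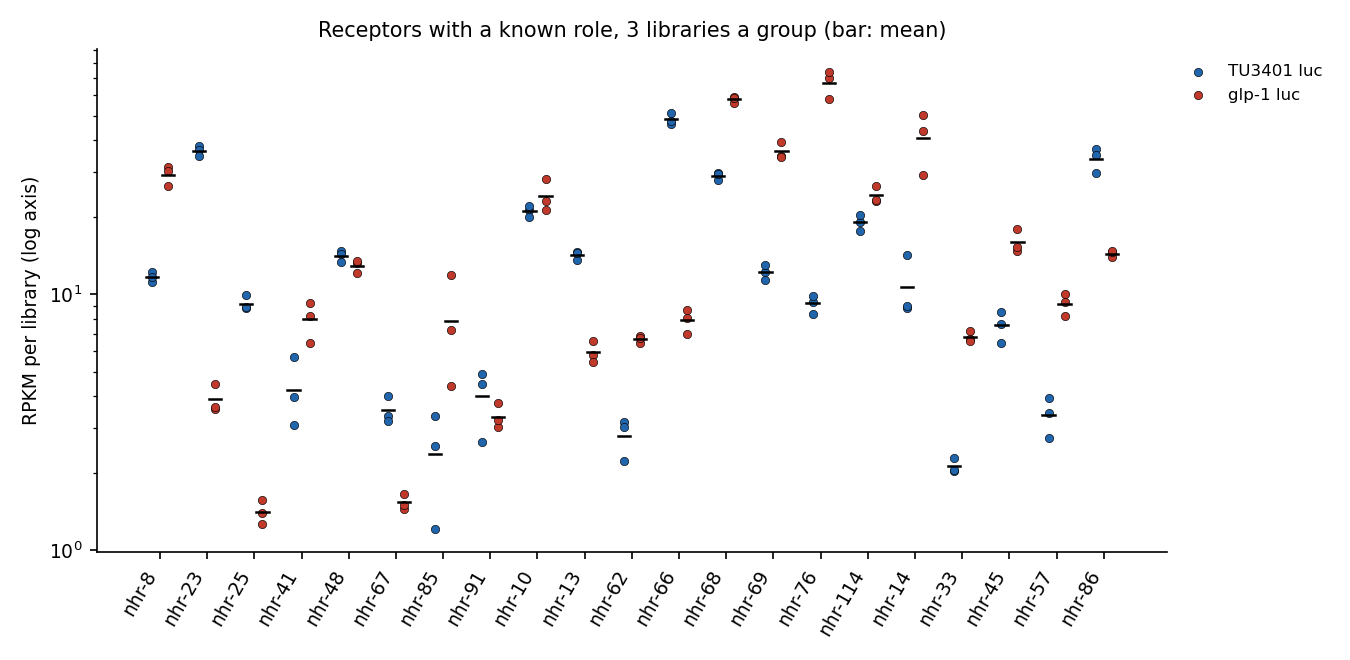
RPKM of each library (vertical, log axis) for the 21 receptors with a listed role that were above the limit, 3 libraries of TU3401 luc (blue) and 3 of glp-1 luc (red), with the mean as a bar. The groups overlap for nhr-48, nhr-91 and nhr-10; nhr-23, nhr-25, nhr-67, nhr-13, nhr-66 and nhr-86 are lower in glp-1 luc and the rest are higher on this scale.

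The deepest fall was that of nhr-2, a receptor known from the early embryo. It stood at 24.5, 29.1 and 27.1 RPKM in TU3401, from 823 to 983 reads, and at 0.523, 0 and 0 RPKM in glp-1 luc, from 15, 0 and 0 reads (-4.60 ± 0.19, limma adjusted p = 2.48e-07; -5.98 after scaling). In the other glp-1 libraries it had 25, 1 and 0 reads under hlh-30 RNAi, 37, 1 and 1 under atg-2 RNAi and 5, 0 and 0 under atg-18 RNAi. Its few reads lay almost all in the libraries numbered 1, and of these the 3 with most reads were the 3 whose germline marker sums were above 100 RPKM. Early embryo markers summed to 84.2 to 99.0 RPKM in TU3401 and 0.543 to 4.25 RPKM in glp-1 libraries, where the highest was again atg-2 RNAi library 1. The part of germline and embryo RNA in this and the other falls was not tested.

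Beyond the genes with a listed role, the largest falls of log2(RPKM + 1) were those of nhr-181, nhr-274, nhr-12 and nhr-71. nhr-181 was at 5.37, 3.59 and 4.16 RPKM in TU3401 and 0.851, 0.262 and 0.281 RPKM in glp-1 luc (-1.88 ± 0.21, limma adjusted p = 6.89e-05). nhr-274 went from 42.8 ± 3.10 to 11.4 ± 2.103 RPKM (-1.83), nhr-12 from 12.9 ± 1.16 to 3.69 ± 0.86 RPKM (-1.58) and nhr-71 from 22.4 ± 1.71 to 7.55 ± 0.76 RPKM (-1.45). All 4 were lower on both scales. With nhr-2, nhr-23, nhr-66 and nhr-25 they are the 8 largest falls of log2(RPKM + 1).

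The largest rises of log2(RPKM + 1) on the RPKM scale after nhr-76 were those of nhr-74, nhr-27, nhr-11, nhr-131, nhr-202, nhr-92 and nhr-88. nhr-74 was at 2.84, 2.99 and 2.46 RPKM in TU3401 and 18.3, 16.2 and 16.3 RPKM in glp-1 luc, a ratio of 6.12 (2.25 ± 0.10, limma adjusted p = 3.8e-07; 0.86 after scaling). nhr-27 went from 7.37, 6.79 and 5.84 RPKM to 33.9, 32.8 and 34.3 RPKM (2.18 ± 0.09, limma adjusted p = 3.06e-07; 0.64 after scaling). nhr-11, nhr-131, nhr-202 and nhr-92 had differences of 2.11, 2.103, 2.04 and 1.96, and 0.81, 0.76, 0.63 and 0.52 after scaling. nhr-88, from 7.45 ± 0.80 to 31.2 ± 3.47 RPKM, no longer passed after scaling (1.93; 0.38, adjusted p = 0.0917). The 9 members called higher on both scales were nhr-76, nhr-74, nhr-257, nhr-11, nhr-131, nhr-27, nhr-202, nhr-130 and nhr-92. nhr-257 was low, at 0.338 ± 0.09 RPKM in TU3401 and 2.84 ± 0.57 RPKM in glp-1 luc.

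The most abundant receptors also rose on the RPKM scale. nhr-97 was at 39.4, 39.3 and 41.1 RPKM in TU3401 and 91.1, 81.4 and 83.5 RPKM in glp-1 luc (1.07 ± 0.06, limma adjusted p = 1.82e-06), and nhr-1 at 19.4 ± 2.00 and 34.8 ± 2.99 RPKM (0.82). After scaling both turned lower, at -0.57 and -0.80. The authors' deposited table for this comparison gave 157 of the 175 members a false discovery rate under 0.05, 141 higher and 16 lower. Of all its 42048 genes 32.7% passed, a share not like for like with the members. Only 24620 of the 42048 genes were detected, and 13383 reached the limit set for the members. By limma, 89.7% of the genes over its filter of 1 RPKM were called. Between limma and the authors' table, 147 members were called in both, all with the same sign.

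Receptors without nhr names and genes that work with receptors were described from gene lists, which were chosen with earlier results of these data known. daf-12, the receptor for dafachronic acids with a known part in germline-less long life, rose from 4.79, 4.78 and 3.72 RPKM to 16.4, 15.8 and 18.8 RPKM (1.73 ± 0.12, limma adjusted p = 4.33e-06), with 0.26 after scaling (adjusted p = 0.199). sex-1, which counts X chromosomes in the embryo, fell from 39.6, 41.0 and 39.0 RPKM to 2.59, 2.96 and 2.56 RPKM (-3.47 ± 0.08, limma adjusted p = 3.9e-08; -5.03 after scaling). Of the 7 genes of ligand synthesis and sterol transport, 3 were tested on the RPKM scale. daf-36, which starts dafachronic acid synthesis from cholesterol, rose from 10.9 ± 1.35 to 22.5 ± 1.58 RPKM (0.99; -0.59 after scaling), and ncr-1, a Niemann-Pick sterol transporter, from 3.56 ± 0.46 to 11.7 ± 1.40 RPKM (1.48; 0.04 after scaling), while emb-8 did not pass (adjusted p = 0.156). Of 7 coregulators none rose and 6 fell, where 41.4% of all genes were called higher and 48.3% lower. sur-2, a Mediator subunit, and cbp-1, the acetyltransferase of the p300 family, had the largest falls, from 21.5 ± 2.36 to 3.47 ± 0.28 RPKM (-2.33) and from 49.9 ± 6.72 to 13.8 ± 1.51 RPKM (-1.78), and mdt-15, the Mediator subunit that binds NHR-49, went from 64.2 ± 4.49 to 53.5 ± 2.12 RPKM (-0.26). All 7 were lower after scaling, where 66.3% of all genes were lower, and the 27 germline and oocyte markers all fell on both scales.

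Many nhr genes lie side by side on the chromosomes. By the gene order of the RefSeq annotation of WBcel235, which matched 273 of the 275 names, 132 of them stood in 42 runs of at least 2 adjacent nhr genes, the longest of 9. Of these 132, 88 were above the limit (66.7%), against 85 of the 141 that stood alone (60.3%). Levels were lower in the runs, with a median over members of 4.07 RPKM against 7.88 RPKM. On the RPKM scale 73 of the 88 rose, 2 fell, 9 did not pass and 4 were not tested, while of the 85 single genes 56 rose, 17 fell, 10 did not pass and 2 were not tested. After scaling, 6 were higher and 26 lower in the runs, and 3 and 46 among the single genes. The median differences were 1.03 and 0.82 on the RPKM scale and -0.10 and -0.59 after scaling. These counts are a description; neighbours can be near-identical copies that share reads, and how the authors counted such reads is not stated in the labels.

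Of the 42 runs, 23 had all members above the limit, 10 had none and 9 had some of each. Many of these runs are pairs, and 63.6% of all 275 members were above the limit. Whether neighbours were alike more often than this share gives was not tested. In 21 runs at least 2 members were called, and in 20 of these all called members rose. Of all called receptors, run members included, 87.3% were higher, a share by gene and not by run. After scaling, 9 runs had at least 2 called members; in 8 of these all were lower, and 1 held both directions. The run of nhr-99, nhr-55, nhr-130, nhr-212, nhr-211 and nhr-106 rose as a block, with differences from 1.41 to 1.87. In the run of nhr-56, nhr-128, nhr-103, nhr-18, nhr-126, nhr-134 and nhr-96, all 7 rose, by 0.58 to 1.51. In that of nhr-123, nhr-98, nhr-203, nhr-202 and nhr-201 the rises ranged from 0.84 to 2.04. Within the run of nhr-161, nhr-163, nhr-139, nhr-140, nhr-162, nhr-107 and nhr-42, 6 rose and nhr-161 had a difference of -0.08 without passing. The exception in direction was the pair nhr-95, which rose by 0.35 (limma adjusted p = 0.0204), and nhr-145, which fell by 0.57 (limma adjusted p = 0.00209). These values are on the RPKM scale; after scaling, 1 of the 6 in the run of nhr-99 and 1 of the 5 in that of nhr-123 were higher, 1 of the 7 in that of nhr-56 and 3 of the 7 in that of nhr-161 were lower, and nhr-95 and nhr-145 were both lower.

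**Figure D4:**
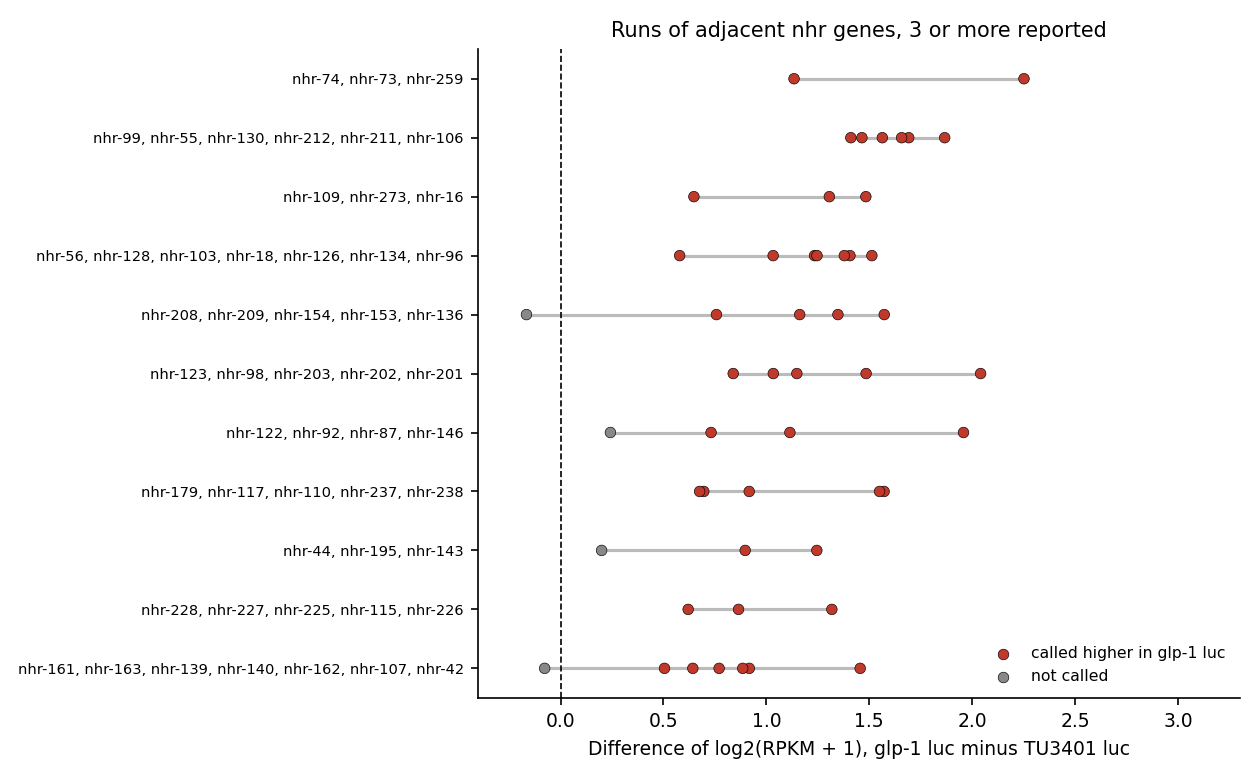
Difference of log2(RPKM + 1), glp-1 luc minus TU3401 luc (horizontal), for each member above the limit (points) in runs of adjacent nhr genes with 3 or more such members (lines, in gene order; the grey line spans a run), coloured by the limma call on the RPKM scale. In these runs each called member is higher in glp-1 luc; nhr-73, nhr-227 and nhr-225 were not tested and have no point.

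Within glp-1 worms, the study asked what RNAi labelled as neuronal against hlh-30, a regulator of autophagy and lysosome genes, or against the autophagy genes atg-2 and atg-18 did. By limma with Benjamini-Hochberg adjustment and no pairing of libraries, 0 receptors passed in each of the 3 comparisons with luc and 0 in the test of any difference among the 4 glp-1 groups. At an unadjusted p under 0.05 there were 20 of 172 members under hlh-30 RNAi (all genes 9.5%), 7 of 171 under atg-2 RNAi (7.66%), 10 of 172 under atg-18 RNAi (6.83%) and 15 of 172 in the test over all 4 groups (11.5%). After adjustment 0.088%, 0.0%, 0.0% and 0.714% of all genes were called. With the library number as a block, the test over all 4 groups did call nhr-43, nhr-88, nhr-11, nhr-203, nhr-286 and nhr-53. In that fit 6.79% of all genes were called, and the numbers did not meet the pairing check described below for all of these groups. The authors' deposited tables gave 0 members a false discovery rate under 0.05 in the 3 comparisons, where 0.221% (hlh-30), 0.00476% (atg-2) and 0.105% (atg-18) of all genes passed. The differences were small: no tested member reached 1 on the log2 scale in any of them, and 168 of 172, 171 of 171 and 171 of 172 stayed within 0.5. Their median standard error was 0.131, 0.126 and 0.131, and a p that misses the threshold does not show that levels were equal. The 3 comparisons share the luc libraries.

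Under hlh-30 RNAi 12 members lay wholly above the luc libraries (6.28% of all genes) and 21 wholly below (8.24%; 14.5% together). The 5 of smallest p were nhr-245, nhr-140, nhr-10, nhr-286 and nhr-58. nhr-245 was at 3.23, 2.55 and 3.02 RPKM in luc and at 4.14, 4.71 and 4.25 RPKM under hlh-30 RNAi (0.45 ± 0.12, limma adjusted p = 0.325). nhr-140 was at 3.20 ± 0.15 and 4.46 ± 0.23 RPKM (0.38 ± 0.10) and nhr-58 at 2.63 ± 0.23 and 3.75 ± 0.30 RPKM (0.39 ± 0.12). nhr-10, the propionate shunt receptor, was at 28.3, 21.4 and 23.1 RPKM in luc and 18.7, 18.5 and 14.5 RPKM under hlh-30 RNAi (-0.47 ± 0.14, limma adjusted p = 0.404). Its partner nhr-68 was at 57.8 ± 1.603 and 56.2 ± 8.72 RPKM, and the shunt gene acdh-1 at 200, 173 and 144 against 95.6, 123 and 150 RPKM, overlapping (-0.50 ± 0.18, limma adjusted p = 0.482). The lowest difference among members was that of nhr-43 at -0.85.

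Under atg-2 RNAi 5 members lay wholly above luc (5.16% of all genes) and 13 wholly below (8.28%; 13.4% together). The smallest p was that of nhr-8, at 31.5, 30.3 and 26.4 RPKM in luc and 23.6, 22.3 and 22.5 RPKM under atg-2 RNAi (-0.35 ± 0.08, limma adjusted p = 0.434). It was followed by nhr-232 (-0.34), nhr-161 (0.32), nhr-152 (-0.21) and nhr-78 (-0.31), the last with overlapping libraries. Under atg-18 RNAi 10 members lay wholly above luc (5.58% of all genes) and 8 wholly below (6.21%; 11.8% together). The smallest p was that of nhr-286, at 4.65, 4.09 and 5.02 RPKM in luc and 6.07, 6.31 and 5.90 RPKM under atg-18 RNAi (0.35 ± 0.10, limma adjusted p = 0.673). nhr-245 (0.39), nhr-62, the receptor of dietary restriction (0.24), nhr-4 (0.27) and nhr-55 (-0.39) followed. nhr-286 was also among the 5 under hlh-30 RNAi, with 5.84, 6.08 and 6.35 RPKM (0.35 ± 0.10), and stood at 5.16, 4.77 and 5.21 RPKM under atg-2 RNAi; it had the smallest p in the test over all 4 groups (limma adjusted p = 0.121).

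**Figure D5:**
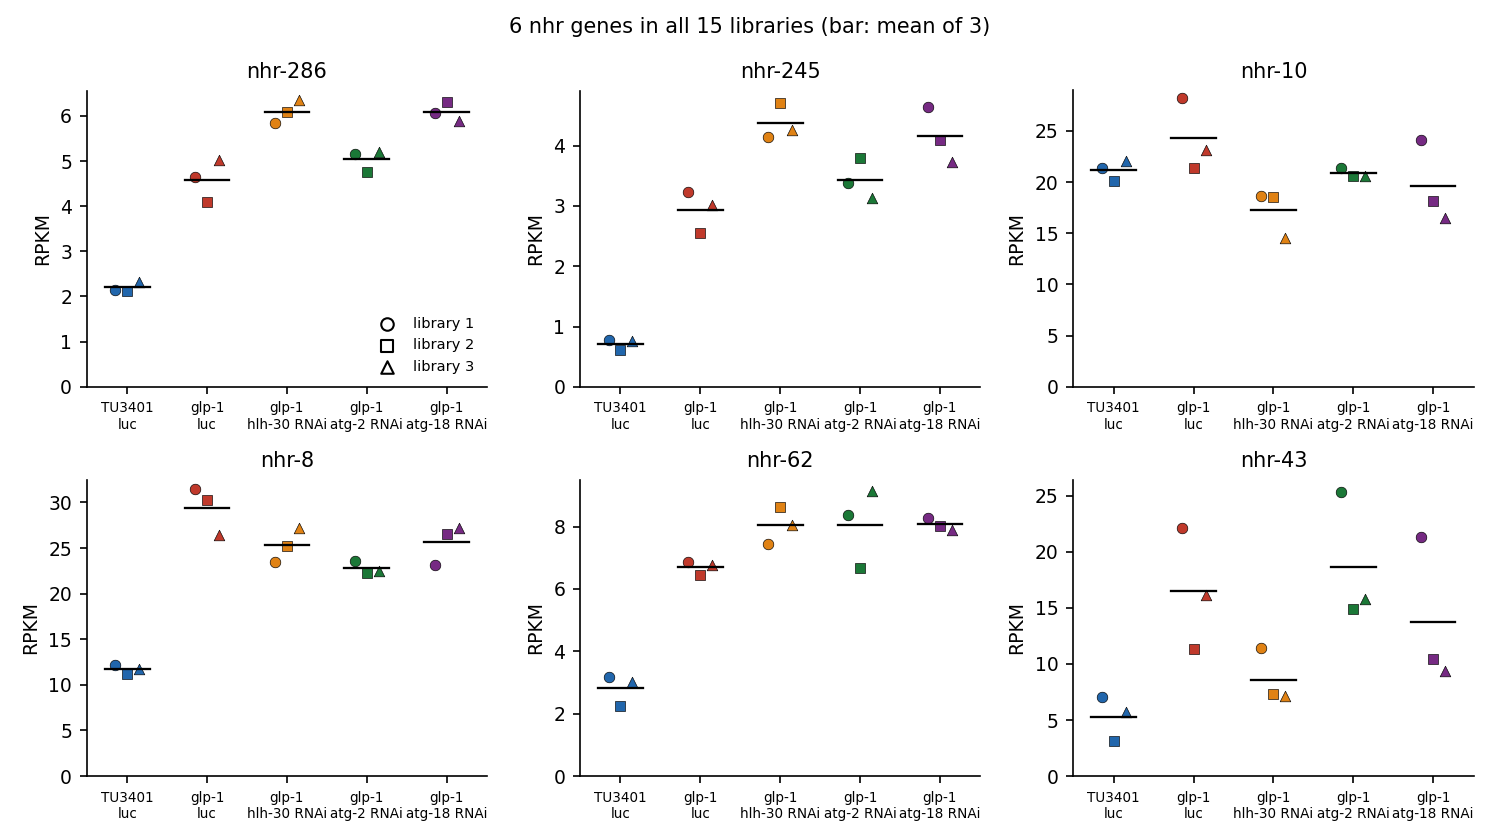
RPKM (vertical) of nhr-286, nhr-245, nhr-10, nhr-8, nhr-62 and nhr-43 in each of the 15 libraries by group (horizontal), with the library number as the symbol and the mean of 3 as a bar. nhr-286 lies between 5.84 and 6.35 under hlh-30 RNAi and between 4.09 and 5.02 in glp-1 luc, and for nhr-43 the circle of library 1 is the highest in each group.

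Some receptors varied widely over the 12 glp-1 libraries, within and between groups together. The largest SD of log2(RPKM + 1) was 0.56, that of nhr-43, followed by nhr-85 at 0.43 and nhr-3 at 0.39. nhr-43 was at 22.1, 11.3 and 16.1 RPKM in luc, 11.4, 7.32 and 7.11 RPKM under hlh-30 RNAi, 25.3, 14.9 and 15.8 RPKM under atg-2 RNAi and 21.4, 10.5 and 9.35 RPKM under atg-18 RNAi, and at 7.04, 3.14 and 5.70 RPKM in TU3401. The library numbered 1 was the highest in all 5 groups for nhr-43 and for 17 other members, 18 of 175, against 9.5% of all genes; number 3 was the highest in all 5 for 4 members (0.732% of all genes) and number 2 for 0 (1.46%). The labels do not say what the numbers stand for.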

How the data were processed

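RNA-seq values of 15 libraries, 3 in each of 5 groups, were taken from 4 deposited tables, each comparing 2 groups. The expression columns are RPKM per library made by the authors, per the file headers; the copies of the glp-1 luc columns differed in 0 values. Per the file headers, each table also holds the authors' log2 fold change, the authors' p-value and false discovery rate, from a test not described in the labels, and a ranking score of the authors, which was not used. Tools given in the submitters' processing notes are TopHat2 2.1.1 and bcl2fastq. They also name GRCh38, a human build, although the genes are those of the worm, so no coordinates are printed and RefSeq WBcel235 served only for gene order. The counting tool, strand use and treatment of reads shared by copies are not given in the sources at hand, so paralogs and overlapping genes are uncertain. Whole reads were recovered from the RPKM steps for 24619 of 24620 detected genes (relative tolerance 1e-06), with depth read from genes of 21 bases. A gene's reads may be divided by a factor common to its libraries. The 15 within-group pairs of libraries all differed beyond sampling noise (chi-square per degree of freedom 6.42 to 22.0), so each counted as 1 replicate.

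Tests used limma 3.58.1 (R 4.3.3, mean-variance trend on) with log2(RPKM + 1) of all genes whose mean over the libraries of the fit was 1 RPKM or more, 6 per comparison and 12 for the test over the 4 glp-1 groups, with Benjamini-Hochberg adjusted p under 0.05; its steps were tested on simulated data. With 3 libraries against 3 an exact permutation cannot go below 0.1, so none is given. Scaling multiplied each library to equal summed RPKM of 16 pan-neuronal and 16 muscle markers. Other alternatives were a pseudocount of 0.1, no filter, a filter of 5 RPKM, a filter over all 15 libraries, no trend, the library number as a block, and each library left out. Numbers were taken to pair libraries where every same-numbered pair of deviations correlated over 0.1: this held for glp-1 luc with atg-2 RNAi (r across genes = 0.402, 0.264 and 0.200), hlh-30 with atg-2 RNAi (0.504, 0.272, 0.291), hlh-30 with atg-18 RNAi (0.208, 0.239, 0.216) and atg-2 with atg-18 RNAi (0.151, 0.183, 0.170), but not for luc with hlh-30 RNAi, luc with atg-18 RNAi or TU3401 with glp-1 luc. Named members were those of the role lists, the 6 highest in level, the 8 largest called changes each way without overlap, with fewer than 5 calls the 5 of smallest p, and 3 either side of the RPKM limit; from other lists up to 2 called genes each way. The members and the 17 gene lists were chosen with earlier results of these data known. daf-12, sex-1, mdt-15, nhr-43, nhr-257, nhr-95, nhr-145, acdh-1 under hlh-30 RNAi and the genes of runs outside that rule were named with their values known. Python 3.11.15, pandas 2.3.3 and matplotlib 3.10.9 served for tables and figures.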

Additional observations from a re-analysis of the deposited data

How the results depend on the processing

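In glp-1 luc against TU3401 luc, the scaling on neuronal and muscle markers moved the calls from 150 (131 higher, 19 lower) to 81 (9 higher, 72 lower). It turned the sign of the differences of nhr-8 to -0.33, nhr-41 to -0.65, nhr-10 to -1.44, nhr-62 to -0.35, nhr-68 to -0.67, nhr-69 to -0.10, nhr-114 to -1.28, nhr-45 to -0.55, nhr-57 to -0.19, nhr-97 to -0.57 and nhr-1 to -0.80. A turned sign was not always a call, and nhr-8 and nhr-69, for example, did not pass after scaling. By list, 2 of 8 metabolic, 4 of 6 stress and metal and 2 of 6 moulting-cycle receptors were not called after scaling, where 75.0% of all genes were called. With a filter of 5 RPKM only 79 members were tested, and 73 were called, 58 of them higher. Leaving out each library in turn gave 144 to 150 calls, 125 to 132 higher and 17 to 19 lower. A pseudocount of 0.1, no filter, the filter over all 15 libraries, limma without a trend and leaving out the libraries numbered 1 kept each of the 3 counts within 1.5 times.

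In the 3 RNAi comparisons 0 members were called under every alternative run, and 0 with each library left out (0 to 0). Members at an unadjusted p under 0.05 then ranged from 10 to 27 for hlh-30, 4 to 8 for atg-2 and 4 to 15 for atg-18 RNAi. With the library number as a replicate block, calls were 148 for glp-1 luc against TU3401 luc and 0 in each RNAi comparison, the paired one of atg-2 included, where 13 members were at an unadjusted p under 0.05. In the test over the 4 glp-1 groups, leaving out a library gave 0 calls, but the replicate block gave 6, nhr-43, nhr-88, nhr-11, nhr-203, nhr-286 and nhr-53, where 6.79% of all genes were called; the numbers did not meet the pairing check for all of these groups. Each library correlated best with its own number in 5 of 6 cases for luc and hlh-30 RNAi and 6 of 6 for luc and atg-18 RNAi, a hint from the data and not from the design. Depth limits the lowest members, whose values rest on few reads.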
